A study of Sus scrofa with 6 samples.

Results

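The genes described here carry signals between muscle fibres and blood vessels in the pig: the growth factors VEGFA and VEGFB, their receptors KDR, FLT1 and NRP1, the ligand ANGPT1 with the receptors TEK and TIE1, and ROBO4 and PECAM1, which are found on vessel walls. They were chosen by gene symbol. Of the 10 listed genes, 9 matched an Ensembl pig gene ID in a table of 25322 IDs, and VEGFB is not analysed here. All 9 passed the filter on low values, which asked for an FPKM of 1 or more in 3 or more libraries, as did 10005 genes in all. FPKM is a level scaled to gene length and library size, so levels can be compared between genes.

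The muscle is longissimus dorsi, a long back muscle, from 6 healthy female Tibetan pigs, a highland breed. High altitude stands for 3 free-ranging animals living at 4000 m on average. Low altitude stands for 3 animals of a Tibetan line kept for several generations on the Chengdu plain, at 500 m on average, with daily feeding under experimental conditions. Altitude, diet, housing and line history differed together and cannot be told apart, age is not given, and each library is 1 animal.

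Vessels in muscle are lined by endothelial cells and wrapped by pericytes. VEGFA is released by muscle fibres and other cells, binds KDR and FLT1 on endothelium, and drives vessel growth mainly through KDR, while FLT1 binds it tightly and signals weakly, so that it can act as a decoy. NRP1 is a co-receptor that presents VEGFA to KDR. ANGPT1, made largely by cells around the vessel, activates TEK and so steadies the vessel wall, ANGPT2 can oppose it, and TIE1 is a partner of TEK with no well established ligand of its own. ROBO4 is a receptor of endothelium linked to barrier stability, and PECAM1 is an adhesion molecule of endothelial junctions that is also carried by platelets and leukocytes. VEGFA is known as a gene induced by low oxygen and by exercise in muscle.

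FPKM totals per library ran from 506611 to 571855, and relative depth, read from the spacing of the lowest values, from 0.857 to 1.22. High altitude library 1 stood apart on the first principal component (31.5% of the variance), with a score of 38.2 against −20.3 to 7.75 in the others. It had the lowest mean level of endothelial markers, 2.49 on the log2(FPKM + 1) scale against 2.84 to 3.05, and of fibroblast and matrix markers, 3.58 against 4.82 to 5.49. Skeletal muscle markers had mean levels of 11.8 to 12.1 on that scale in the 6 libraries. Single markers could vary more. TNNT1, a troponin of slow fibres, ran from an FPKM of 609 in high altitude library 2 to 2251 in high altitude library 1. For NEB, MYL1 and TNNC2 the highest level was 1.17 to 1.33 times the lowest.

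PECAM1, NRP1 and VEGFA marked the upper part of the range and ANGPT1 its lower end. Over the 6 libraries the mean FPKM was 32.7 for PECAM1, 12.9 for NRP1, 12.05 for VEGFA, 5.73 for FLT1, 4.88 for KDR, 4.17 for TIE1, 3.75 for ROBO4, 2.82 for TEK and 1.07 for ANGPT1. PECAM1 lay above NRP1, VEGFA above FLT1, and TEK above ANGPT1 in 6 of 6 libraries. NRP1 was above VEGFA in 5 of 6, FLT1 above KDR in 4, KDR above TIE1 in 3, TIE1 above ROBO4 in 3 and ROBO4 above TEK in 4, so the order within these neighbouring pairs changed from animal to animal. Among all tested genes 89% had a lower mean level than PECAM1, 74.6% than VEGFA, 51% than KDR and 3.12% than ANGPT1.

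**Figure D1:**
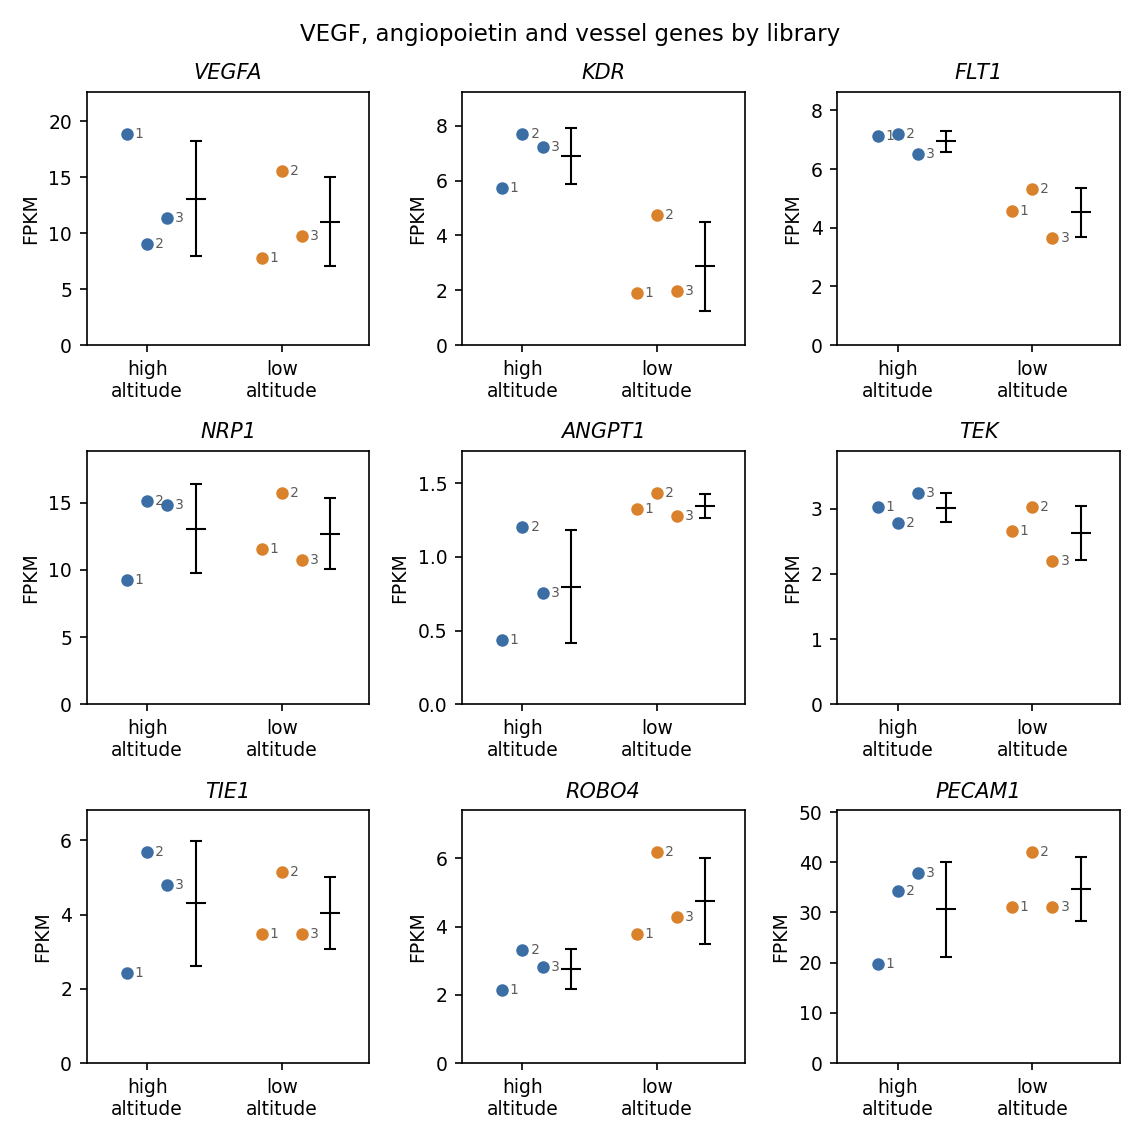
FPKM of the 9 genes in each library, with 1 point per animal numbered by library, and a bar for the mean ± SD of 3 animals beside each group. KDR and FLT1 lie lower in the 3 low altitude animals than in any high altitude animal, ROBO4 and ANGPT1 lie higher, and the groups overlap for the other 5 genes.

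KDR and FLT1, the signalling receptors for VEGFA, were lower in each low altitude animal than in any high altitude animal, whereas VEGFA, NRP1, TEK, TIE1 and PECAM1 overlapped and ROBO4 and ANGPT1 lay higher at low altitude. With limma and Benjamini-Hochberg adjusted p-values, taken over the whole set of tested genes, 0 of the 9 passed the threshold of 0.05, where 0.23% of all tested genes did. At an unadjusted p under 0.05 there were 3 (KDR, FLT1 and ROBO4), where the share of all tested genes was 9.42%. Estimates were below 0 for 6 of the 9 and above 0 for 3, where 42.3% of all tested genes were below and 57.7% above. The groups did not overlap for 4 of the 9, where the share was 16.1% of all tested genes, 11.3% with low altitude above and 4.8% with low altitude below. Without high altitude library 1 the same 4 genes remained apart, which was fixed in advance, since leaving out a library cannot make separate groups overlap. In that smaller set of libraries 32.3% of all tested genes were apart.

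The ligand VEGFA varied as widely within a group as between groups. It was at an FPKM of 18.8, 9.02 and 11.4 in high altitude libraries 1 to 3 and at 7.81, 15.5 and 9.74 in low altitude libraries 1 to 3. The highest level in each group stood apart from the remaining pair, and the groups overlapped. Means were 13.1 ± 5.12 (SD, n = 3) at high and 11.02 ± 4.0 at low altitude. On the log2(FPKM + 1) scale, as low minus high altitude throughout, its log2 fold change was −0.22 (SE 0.32, 95% interval −0.97 to 0.53, limma with Benjamini-Hochberg adjusted p = 0.875), and it was 0.06 without high altitude library 1.

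KDR, the main signalling receptor for VEGFA, had the largest difference of the 9 genes. Its FPKM was 5.74, 7.69 and 7.22 at high against 1.90, 4.75 and 1.97 at low altitude. Low altitude library 2 came nearest to the high altitude animals, and low altitude libraries 1 and 3 were close to each other. The mean was 6.88 ± 1.02 (SD, n = 3) at high and 2.87 ± 1.62 at low altitude, 2.40-fold higher at high altitude. The log2 fold change was −1.09 (SE 0.28, 95% interval −1.75 to −0.44, unadjusted p = 0.00548 and Benjamini-Hochberg adjusted p = 0.303 in limma), which ranked 180 of 10005 genes by p. Without low altitude library 2 it was −1.42, with an adjusted p of 0.0660 in limma. In bulk tissue, fewer endothelial cells and less KDR RNA per cell cannot be told apart from KDR alone.

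FLT1, the tightly binding VEGFA receptor, shared that order with a smaller difference. It was at an FPKM of 7.12, 7.19 and 6.52 at high against 4.58, 5.33 and 3.67 at low altitude. The 3 high altitude values lay close together and all above the low altitude values. The mean was 6.94 ± 0.369 (SD, n = 3) at high and 4.52 ± 0.831 at low altitude, 1.54-fold higher at high altitude. Its log2 fold change was −0.53 (SE 0.15, 95% interval −0.89 to −0.18, unadjusted p = 0.00924 and Benjamini-Hochberg adjusted p = 0.343 in limma). FPKM is given per gene, so the membrane form of FLT1 and its secreted form were not distinguished.

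NRP1, the co-receptor, showed no such separation. Its FPKM was 9.24, 15.2 and 14.9 at high against 11.6, 15.7 and 10.8 at low altitude. High altitude library 1 was the lowest and low altitude library 2 the highest, with the groups overlapping. The log2 fold change was −0.03 (SE 0.23, 95% interval −0.57 to 0.52, limma with Benjamini-Hochberg adjusted p = 0.982), and −0.24 without high altitude library 1.

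In the angiopoietin branch the ligand ANGPT1 was higher in the low altitude animals while its receptor TEK overlapped. ANGPT1 was at an FPKM of 0.438, 1.202 and 0.755 at high against 1.33, 1.43 and 1.28 at low altitude. The low altitude animals lay close together and above all high altitude animals, of which library 2 came nearest. The low altitude mean of 1.34 ± 0.0805 (SD, n = 3) was 1.68-fold that of 0.798 ± 0.384 at high altitude. Its level is near the filter of 1, which it reached in 4 libraries, the 3 from low altitude and high altitude library 2. Its log2 fold change was 0.40 (SE 0.18, 95% interval −0.01 to 0.82, unadjusted p = 0.0541 and Benjamini-Hochberg adjusted p = 0.538 in limma), and 0.25 without high altitude library 1, in which it was lowest. With a pseudocount of 0.1 in place of 1 it was 0.78.

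TEK was the steadiest of the 9 genes, with a highest FPKM 1.47 times the lowest. It was at 3.03, 2.78 and 3.24 at high against 2.65, 3.02 and 2.202 at low altitude. The groups overlapped, with 2 low altitude animals below all high altitude animals (log2 fold change −0.15, SE 0.14, 95% interval −0.48 to 0.17, limma with Benjamini-Hochberg adjusted p = 0.769). TIE1 was at 2.44, 5.68 and 4.78 at high and 3.49, 5.16 and 3.47 at low altitude, with the low altitude values all inside the range of the high altitude values. Its log2 fold change was −0.03 (SE 0.27, 95% interval −0.67 to 0.60, limma with Benjamini-Hochberg adjusted p = 0.981), and −0.32 without high altitude library 1.

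Of the vessel wall genes, ROBO4 was higher at low altitude and PECAM1 overlapped. ROBO4 was at an FPKM of 2.15, 3.31 and 2.81 at high against 3.77, 6.18 and 4.29 at low altitude. Each low altitude animal exceeded every high altitude animal, and low altitude library 2 was the highest. The low altitude mean of 4.74 ± 1.27 (SD, n = 3) was 1.72-fold that of 2.76 ± 0.579 at high altitude. The log2 fold change was 0.60 (SE 0.20, 95% interval 0.13 to 1.07, unadjusted p = 0.0187 and Benjamini-Hochberg adjusted p = 0.416 in limma). It was 0.48 when high altitude library 1 was left out (unadjusted p = 0.0529 in limma) and 0.43 when low altitude library 2 was left out (0.0596). PECAM1 was at 19.8, 34.3 and 37.8 at high and 31.0, 42.0 and 31.0 at low altitude. High altitude library 1 was the only value under 31.0, and the other 5 lay within the range of 31.0 to 42.0. Its log2 fold change was 0.21 (SE 0.26, 95% interval −0.41 to 0.83, limma with Benjamini-Hochberg adjusted p = 0.851), but −0.07 when high altitude library 1 was left out.

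**Figure D2:**
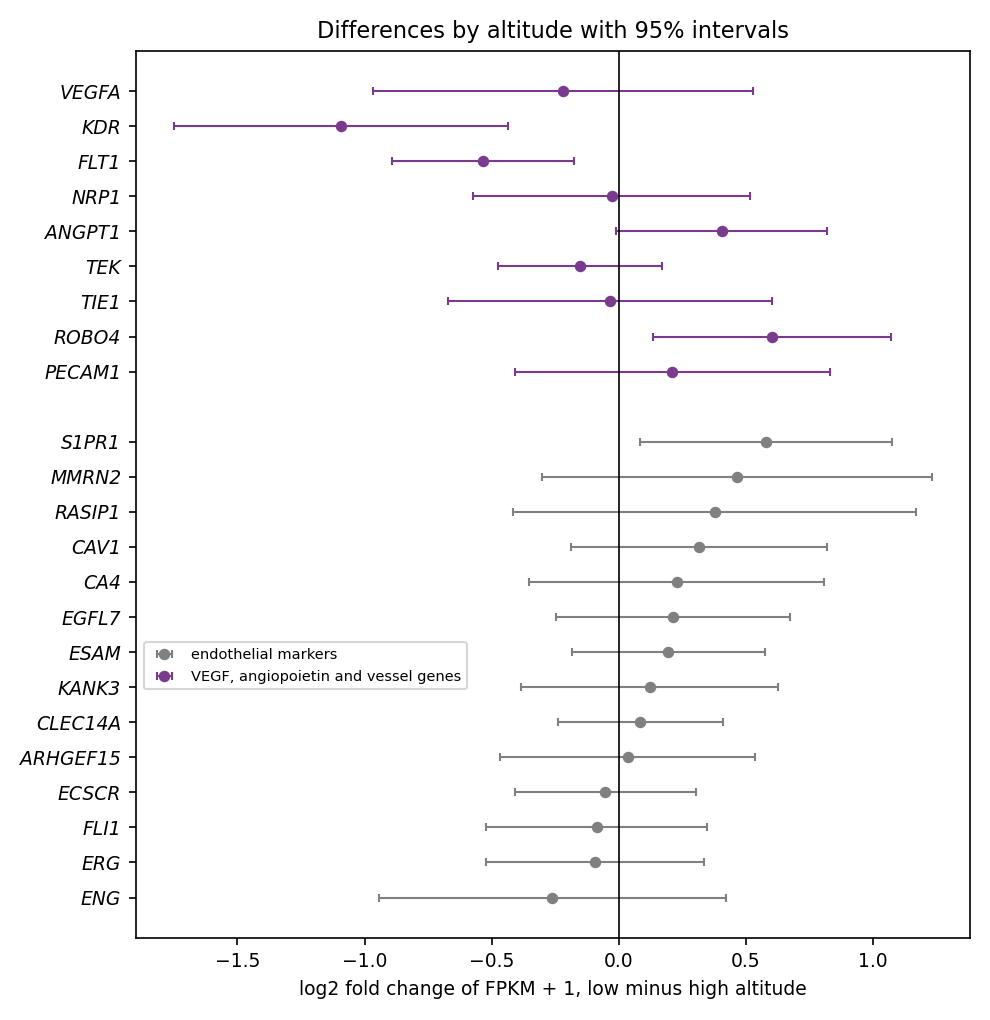
Log2 fold change of FPKM + 1, low minus high altitude, with 95% intervals from limma, for the 9 genes (purple) and the 14 tested endothelial markers (grey). The intervals of KDR and FLT1 lie below 0, those of ROBO4 and the marker S1PR1 lie above 0, and the other intervals include 0. The intervals are not adjusted for the number of genes.

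Endothelial content was read from 30 other markers, of which 14 had a row and all 14 were tested. None passed the threshold over all tested genes, 10 had estimates above 0 and 4 below, and their median log2 fold change was 0.16, where the median of all tested genes was 0.04. CDH5, CLDN5, EMCN, VWF and CD34 were among the markers without a row. The summed FPKM of the 14 was 107 to 169 at high against 153 to 193 at low altitude. CAV1 made up a large part of that sum, 48.6 of 107 in high altitude library 1 and 94.6 of 193 in low altitude library 2. Without high altitude library 1 the split was 7 above and 7 below, with a median of −0.01. S1PR1, a receptor for a blood lipid that tightens junctions, was at 13.1 to 20.04 at low and 9.06 to 13.5 at high altitude (log2 fold change 0.58, unadjusted p = 0.0281 and Benjamini-Hochberg adjusted p = 0.460 in limma). CAV1, the coat protein of caveolae, was at 65.5 to 94.6 and 48.6 to 73.0, ESAM, a junction protein, at 2.98 to 3.37 and 2.10 to 3.44, and MMRN2, a matrix protein of vessels, at 2.48 to 4.95 and 1.15 to 3.47, in that order of groups, all overlapping.

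With the mean level of the endothelial markers as a covariate, KDR and FLT1 stayed lower at low altitude, while the estimates of ROBO4 and ANGPT1 were smaller than without it. The log2 fold change of KDR was −1.28 (SE 0.27, Benjamini-Hochberg adjusted p = 0.213 in limma), that of FLT1 −0.53 (SE 0.16, adjusted p = 0.296), that of ROBO4 0.46 (SE 0.17, adjusted p = 0.372) and that of ANGPT1 0.30 (SE 0.17, adjusted p = 0.504). In the same fit NRP1 was at −0.24, TIE1 at −0.30, TEK at −0.18, VEGFA at −0.10 and PECAM1 at −0.07. None of the 9 genes passed the threshold in it.

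Across the 6 libraries PECAM1 had the highest correlation with the endothelial markers of the 9 genes. Its Pearson's r with their mean level was 0.97 (exact permutation p = 0.00694, adjusted over 9 genes 0.0625) and Spearman's rho was 0.94 (exact permutation p = 0.0167, adjusted 0.15). With values centred on their group means r was 0.97 (permutation p = 0.00139, adjusted 0.0125). Centred values were permuted across both groups, although they are exchangeable only within a group. Their permutation p is therefore not exact and is not read as a pass. Without the pair of libraries farthest from the median marker level, high altitude library 1 and low altitude library 2, r was 0.70. For NRP1 the corresponding r was 0.79 (exact permutation p = 0.0306, adjusted 0.137; rho 0.71, exact permutation p = 0.136) and for TIE1 0.78 (exact permutation p = 0.05, adjusted 0.15; rho 0.54, exact permutation p = 0.297). These fell to 0.28 and 0.14 without those libraries, so both relations rest on them. VEGFA had an r of −0.40 (exact permutation p = 0.467; rho 0.14, exact permutation p = 0.803) that became 0.96 without them, and TEK an r of −0.05 (exact permutation p = 0.917; rho 0.14, exact permutation p = 0.803) that became 0.43. For KDR, FLT1, ANGPT1 and ROBO4, whose groups lie apart, the r is given only on values centred on the group means. The r values were 0.58, −0.01, 0.65 and 0.72 (permutation p = 0.235, 0.993, 0.15 and 0.110, also not exact). Without the pair of farthest libraries, and centred again, these were −0.61, −0.81, −0.92 and −0.36 over the 4 that remain, so the positive values of KDR, ANGPT1 and ROBO4 rest on that pair.

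**Figure D3:**
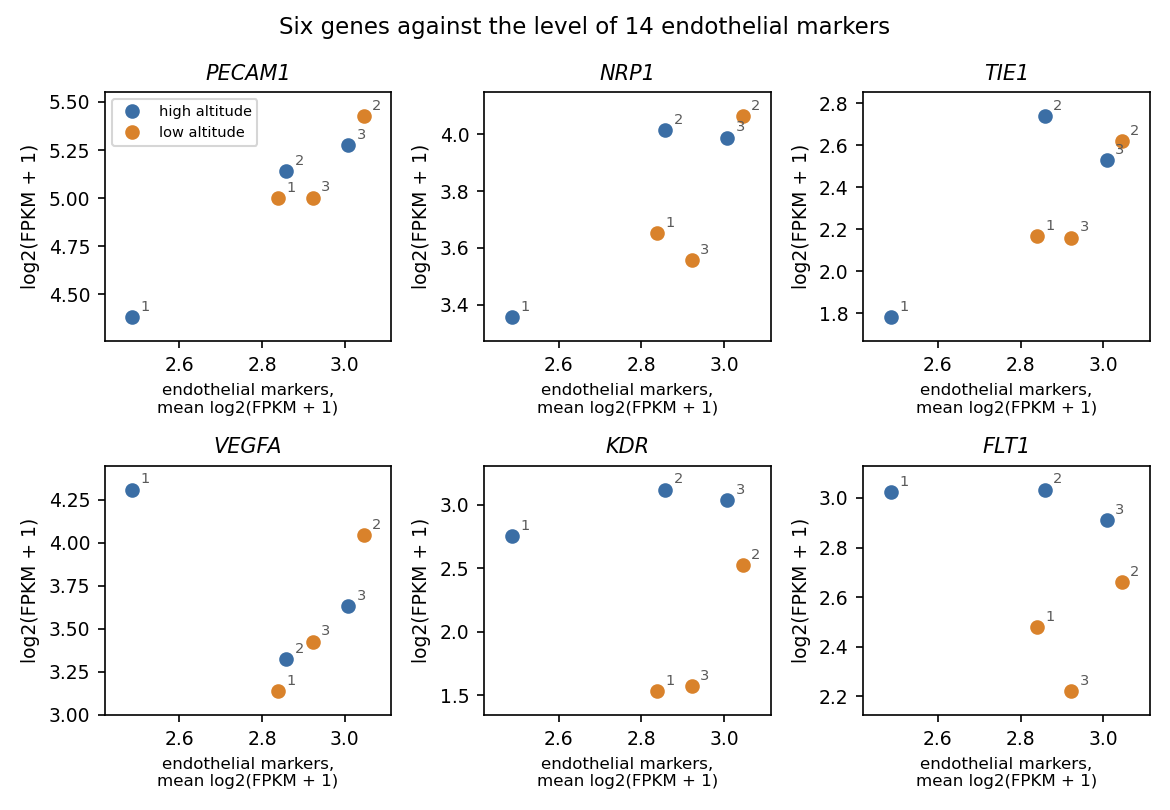
Level of 6 genes against the mean level of the 14 endothelial markers, both as log2(FPKM + 1), with 1 point per animal numbered by library. PECAM1 rises along the markers in both groups, whereas KDR and FLT1 lie lower in the low altitude animals at marker levels within those of the high altitude group or just above them. VEGFA is highest in high altitude library 1, where the markers are lowest.

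NRP1, TIE1 and PECAM1 also varied together from animal to animal. Among the 5 genes whose groups overlap there were 10 pairs. NRP1 and TIE1 had a Pearson's r of 0.98 (exact permutation p = 0.00694, adjusted over the 10 pairs 0.0347), NRP1 and PECAM1 0.90 (exact permutation p = 0.00556, adjusted 0.0347) and TIE1 and PECAM1 0.88 (exact permutation p = 0.0139, adjusted 0.0463). Spearman's rho was 0.94, 0.89 and 0.77 (exact permutation p = 0.0167, 0.0333 and 0.103, adjusted 0.167, 0.167 and 0.343). Leaving out the 2 libraries farthest from the median of the first gene of each pair left r at 0.94, 0.83 and 0.99. Of the other 7 pairs, which involve VEGFA or TEK, none passed, and VEGFA with TEK was at 0.53 (exact permutation p = 0.271; rho 0.66, exact permutation p = 0.175).

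Ratios formed inside a library set ligand, receptor and vessel content against each other. Each is a difference of log2(FPKM + 1) values, and 9 ratios were compared by an exact two-sided permutation test over 20 assignments of the libraries, in which 0.1 is the smallest p possible, so none could pass. KDR to PECAM1 was −1.63, −2.02 and −2.24 at high and −3.47, −2.90 and −3.43 at low altitude. All low altitude animals were below all high altitude animals, by 2.47-fold on average (difference −1.30, exact permutation p = 0.1, adjusted 0.225). NRP1 to KDR was 0.60, 0.89 and 0.95 at high and 2.12, 1.54 and 1.99 at low altitude, 2.09-fold higher in the low altitude animals with no overlap (exact permutation p = 0.1, adjusted 0.225). By itself KDR differed by −1.09, NRP1 by −0.03 and PECAM1 by 0.21, so both ratios largely restate the difference in KDR.

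The other ratios with VEGFA or KDR overlapped between altitudes. VEGFA to KDR was 1.56, 0.21 and 0.59 at high and 1.60, 1.52 and 1.86 at low altitude, with high altitude library 1 among the low altitude values (difference 0.88, exact permutation p = 0.2, adjusted 0.257). Without that library the difference was 1.26 and the groups lay apart (exact permutation p = 0.1, the smallest that 2 against 3 libraries can give). FLT1 to KDR was 0.27, −0.09 and −0.13 at high and 0.94, 0.14 and 0.65 at low altitude, also overlapping (difference 0.56, exact permutation p = 0.2, adjusted 0.257). VEGFA to the mean of the endothelial markers was 1.82, 0.47 and 0.62 against 0.30, 1.0 and 0.50 (difference −0.37, exact permutation p = 0.6, adjusted 0.675), and the difference was 0.06 without high altitude library 1. ROBO4 to PECAM1 differed by 0.39 with overlap (exact permutation p = 0.2, adjusted 0.257), but by 0.55 with the groups apart without high altitude library 1, and by 0.53 with the groups apart at a pseudocount of 0.1. TEK to TIE1 differed by −0.12 (exact permutation p = 0.8), and by 0.17 without high altitude library 1.

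Against both its receptor and its antagonist, ANGPT1 stood higher in all 3 low altitude animals than in any high altitude animal. ANGPT1 to TEK was −1.49, −0.78 and −1.27 at high and −0.65, −0.73 and −0.49 at low altitude, with no overlap (difference 0.56, exact permutation p = 0.1, adjusted 0.225). ANGPT2, the ligand that can oppose ANGPT1, did not pass the filter on low values. Its FPKM was 1.02, 1.47 and 0.771 at high and 0.510, 0.887 and 0.318 at low altitude, with low altitude library 2 inside the high altitude range. ANGPT1 to ANGPT2 was −0.49, −0.16 and −0.01 at high and 0.62, 0.37 and 0.79 at low altitude, 1.76-fold higher with no overlap (difference 0.82, exact permutation p = 0.1, adjusted 0.225). The sizes of both ratios depend on the pseudocount, since the levels are low: at 0.1 the differences were 0.98 for ANGPT1 to TEK and 1.64 for ANGPT1 to ANGPT2. ANGPT1 was below ANGPT2 in all 3 high altitude animals and above it in all 3 low altitude animals.

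**Figure D4:**
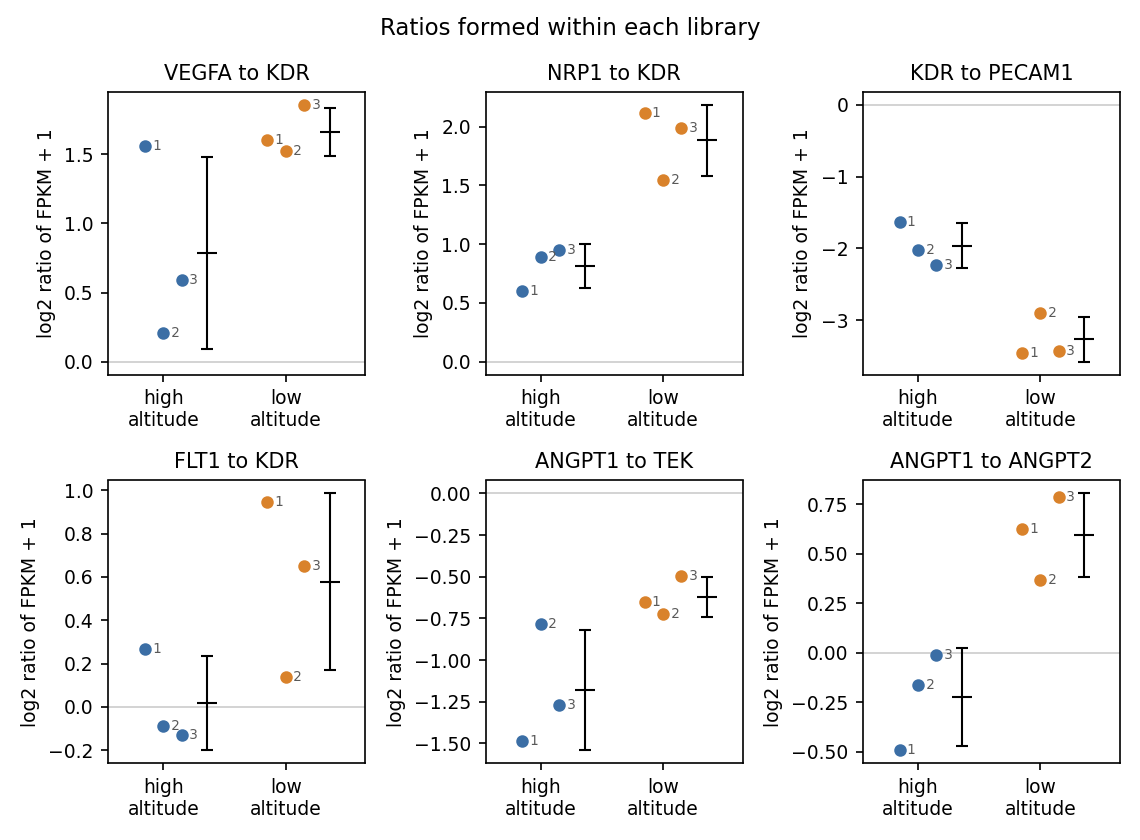
Log2 ratios of FPKM + 1 within a library for 6 of the pairs, with 1 point per animal numbered by library and a bar for the mean ± SD of 3 animals. KDR to PECAM1 is lower in every low altitude animal, NRP1 to KDR, ANGPT1 to TEK and ANGPT1 to ANGPT2 are higher, and VEGFA to KDR and FLT1 to KDR overlap.

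The rest of the pathway held no gene that passed the threshold. Other VEGF ligands and receptors had 7 of 9 genes with a row and 5 tested, 2 with estimates above 0 and 3 below (median log2 fold change −0.18). VEGFC, the ligand of lymphatic growth, was at an FPKM of 0.565 to 1.55 at high against 0.579 to 1.22 at low altitude, and VEGFD at 1.71 to 2.05 and 1.90 to 2.52. PDGFC and PDGFD, related growth factors for perivascular cells and fibroblasts, also overlapped. Among other angiopoietin and Tie partners 9 of 9 had a row and 5 were tested, 4 above 0 and 1 below (median 0.31), but 1 above and 4 below without high altitude library 1 (median −0.05). PTPRB, the phosphatase that restrains TEK, was at 2.97 to 5.41 at high against 4.27 to 5.10 at low altitude, and SVEP1, a matrix protein, at 0.514 to 2.48 and 1.76 to 2.65. ANGPTL1 and ANGPTL4, secreted relatives of the angiopoietins, overlapped as well.

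Of 26 signal carriers downstream of the VEGF receptors 19 had a row and 16 were tested, 8 above 0 and 8 below (median −0.01). The split was 5 above and 11 below without high altitude library 1 (median −0.12) and also with the endothelial covariate (median −0.12), and 6 above and 10 below with array weights. NOS3, the endothelial nitric oxide synthase, was at 1.67 to 3.22 FPKM at high against 2.77 to 3.79 at low altitude, and PLCG1, the phospholipase bound by KDR, at 1.81 to 3.40 and 3.31 to 4.05. SRC, a kinase that loosens junctions after VEGF, was at 1.49 to 2.29 and 0.720 to 1.55 (log2 fold change −0.43, unadjusted p = 0.0544 and Benjamini-Hochberg adjusted p = 0.538 in limma), and the adaptor NCK2 at 6.11 to 15.2 and 10.4 to 14.3. Semaphorins, plexins, Slit and Robo genes, which include other ligands of NRP1, had 18 of 18 with a row and 8 tested, 5 above 0 and 3 below (median 0.07), but 0 above and 8 below without high altitude library 1. UNC5B, a receptor that binds ROBO4, was at 0.525 to 1.11 at high against 0.431 to 1.05 at low altitude, and SEMA3C, a ligand of NRP1, at 6.48 to 12.5 and 6.24 to 9.72.

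In the Notch pathway, which sets tip and stalk cells in a growing vessel, 11 of 13 genes had a row and 10 were tested, 4 above 0 and 6 below (median −0.06). NOTCH4, the Notch receptor of endothelium, was at 2.30, 3.58 and 3.12 FPKM at high and 3.73, 3.90 and 3.90 at low altitude, without overlap (log2 fold change 0.29, unadjusted p = 0.101 and Benjamini-Hochberg adjusted p = 0.608 in limma). HEY1, a target of Notch, was at 2.08 to 3.25 and 1.71 to 2.14, and the ligands DLL1 and JAG1 overlapped. The related target HEY2, chosen after its values were seen, was under the filter and lay at 0.491 to 0.633 at high against 0.207 to 0.332 at low altitude.

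Among inhibitors of vessel growth every tested gene had an estimate above 0. Of 15 genes 9 had a row and 7 were tested, 3 at an unadjusted p under 0.05 in limma and 0 past the threshold (median 0.44), where 57.7% of all tested genes were above 0 and 9.42% had an unadjusted p under 0.05. Without high altitude library 1 the split was 5 above and 2 below. With no filter 9 were fitted, 8 above and 1 below, with 3 at an unadjusted p under 0.05 in limma. Leaving out any 1 low altitude library left 6 tested, with 1 or 2 at an unadjusted p under 0.05 in limma. THBS1, a secreted protein that blocks endothelial growth, was at 6.68, 2.34 and 3.65 FPKM at high and 8.98, 10.1 and 23.5 at low altitude, without overlap (log2 fold change 1.502, unadjusted p = 0.00833 and Benjamini-Hochberg adjusted p = 0.332 in limma). ADAMTS1, a protease that can bind VEGFA, was at 0.708 to 0.919 and 1.43 to 2.54, and SPRY2, a brake on growth factor signalling, at 4.63 to 5.61 and 6.33 to 7.14, both without overlap (adjusted p = 0.319 and 0.458 in limma). ADAMTS1 reached an FPKM of 1 only in the 3 low altitude libraries. It passed the filter through the group where it is high, which fixed its direction. VASH1, an inhibitor made by endothelium, was at 0.649 to 2.41 and 1.88 to 3.59.

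Regulators of VEGFA in muscle had 13 of 15 genes with a row and all 13 tested, 9 above 0 and 4 below, with 4 at an unadjusted p under 0.05 in limma and 0 past the threshold (median 0.20), beside the same 57.7% and 9.42% of all tested genes. Without high altitude library 1 the split was 8 above and 5 below (median 0.07). EGLN3, an oxygen sensor that is itself induced by low oxygen, was at 3.63, 2.06 and 2.29 FPKM at high and 1.38, 1.79 and 0.827 at low altitude, without overlap (log2 fold change −0.65, unadjusted p = 0.0221 and Benjamini-Hochberg adjusted p = 0.434 in limma). KLF4, a zinc finger factor induced in endothelium by flow, was at 4.03 to 6.17 and 8.09 to 11.5 (log2 fold change 0.90, adjusted p = 0.208 in limma), and FOXO1 at 2.58 to 4.82 and 5.70 to 9.61 (0.87, adjusted p = 0.325 in limma). FOXO3 lay apart in the same direction (adjusted p = 0.243 in limma).

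Markers of the other cells that could bear on these genes gave no gene past the threshold. Of 15 pericyte and smooth muscle markers, whose cells are a source of ANGPT1, 9 were tested, 4 above 0 and 5 below (median −0.05), or 2 above and 7 below without high altitude library 1 (median −0.14), with mean levels of 3.08 to 3.68 at high against 3.23 to 3.64 at low altitude on the log2 scale. MYH11, the smooth muscle myosin, was at 4.24 to 9.32 FPKM at high against 3.15 to 4.70 at low altitude, and TAGLN at 39.5 to 43.6 and 48.4 to 54.5. Arterial and venous markers had 5 of 12 tested, 2 above 0 and 3 below (median −0.16). The venous factor NR2F2 was at 3.62 to 6.21 and 2.65 to 3.65 (log2 fold change −0.52, unadjusted p = 0.0307 and Benjamini-Hochberg adjusted p = 0.476 in limma). EPHB4, another venous marker, went the other way, at 0.513 to 1.73 and 1.51 to 2.28 (log2 fold change 0.42, unadjusted p = 0.122 in limma). Both overlapped. Lymphatic markers had 3 of 7 tested and all above 0, where 57.7% of all tested genes were above 0. MMRN1 was at 0.630 to 0.974 and 1.27 to 1.61. It passed the filter only through the low altitude libraries, which fixed its direction. With no filter 6 lymphatic markers were fitted, 5 above 0 and 1 below.

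Of 9 platelet genes, whose cells could carry PECAM1, 4 had a row and ITGB3, an integrin subunit, was tested. Its FPKM was 0.746, 1.82 and 1.19 at high against 1.24, 1.23 and 0.841 at low altitude, which overlapped. GP1BB was listed at 0 in 6 libraries and TREML1 in 5, but an exact 0 in this table need not be low expression, since the muscle actin ACTA1 is listed at 0 in 4 libraries. Macrophage markers, which could also carry PECAM1 and NRP1, had 4 of 10 tested and 4 above 0 (median 0.06), or 2 above and 2 below without high altitude library 1. Lymphocyte markers had 4 of 12 tested and 4 below 0 (median −0.25), or 2 above and 2 below without low altitude library 1 or 2. Of these, CD3D was at 2.04, 2.82 and 1.87 at high and 0.991, 1.07 and 1.07 at low altitude, without overlap (log2 fold change −0.66, unadjusted p = 0.00271 and Benjamini-Hochberg adjusted p = 0.238 in limma). The other tested lymphocyte markers, CD2, CD8A and NKG7, overlapped. Each was highest in low altitude library 3, at 3.85, 1.96 and 4.47. Fibroblast and matrix markers had 10 of 12 tested, 8 above 0 and 2 below (median 0.38), but 4 above and 6 below without high altitude library 1. Erythroid markers had 2 of 8 tested, adipocyte markers 4 of 10 and skeletal muscle markers 6 of 19, with medians of −0.38, −0.23 and −0.02. The part of these cells in the levels of PECAM1 and in the differences of ANGPT1 and ROBO4 was not tested.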

How the data were processed

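The authors deposited FPKM values for 25322 Ensembl pig gene IDs, and the 6 columns carry the libraries' titles. Libraries were strand-specific (dUTP), per the labels' protocols. The submitters' processing notes name TopHat2 (2.0.11) and Cufflinks (2.2.1) without their roles. Genome build, annotation and filters: not given in the sources used here. No coordinates are therefore printed. Without counts, absolute depth is unknown. A table of IDs and names gave 11804 IDs a symbol.

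Values were analysed as log2(FPKM + 1) with limma 3.58.1 (trend) in R 4.3.3, two-sided, low minus high altitude, on the 10005 genes that reached an FPKM of 1 in 3 or more libraries. Benjamini-Hochberg adjustment covered all of them, and the fit was tested on simulated data. Named genes were the 9 matched and, per list, up to 4 by unadjusted p, plus the 3 genes most like VEGFA and PECAM1. Members and lists were chosen with earlier results of these data known. Alternatives were pseudocounts, filters, scalings, limma options, a replicate block, an endothelial covariate and leaving out each library. The labels do not say that shared replicate numbers pair animals.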

Additional observations from a re-analysis of the deposited data

How the results depend on the processing

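In none of the 18 alternative fits did any of the 9 genes pass the threshold in limma, and the lowest Benjamini-Hochberg adjusted p was 0.0660, for KDR without low altitude replicate 2. KDR, FLT1, TEK, ANGPT1 and ROBO4 kept their direction in every alternative that gave a value. For KDR, FLT1, ANGPT1 and ROBO4, whose groups do not overlap, leaving out a library or changing the pseudocount could not turn the sign. Filters, the replicate block, limma without trend and the robust fit left the estimates of the 9 genes unchanged, so those settings cannot bear on direction. The log2 fold change ran from −1.42 to −0.92 for KDR, −0.64 to −0.42 for FLT1, 0.43 to 0.75 for ROBO4 and 0.25 to 0.78 for ANGPT1. A filter at a mean FPKM of 5 left KDR, TEK, TIE1, ANGPT1 and ROBO4 without a value. Estimates near 0 turned in sign. When 1 library was left out, VEGFA ran from −0.472 to 0.0587, NRP1 from −0.243 to 0.0860, TIE1 from −0.319 to 0.160 and PECAM1 from −0.0656 to 0.383, with VEGFA above and PECAM1 below 0 only without high altitude replicate 1. So did the differences in the ratio of TEK to TIE1, from −0.355 to 0.170, and of VEGFA to the endothelial markers, from −0.621 to 0.0565. Rescaled to a common total, which moved the median of all genes to 0.10, NRP1 was at 0.0428 and TIE1 at 0.0264, and with the endothelial covariate PECAM1 was at −0.0662. Centred on group means, r with the markers was 0.973 for PECAM1, with an adjusted permutation p of 0.0125 that is not exact. For KDR and TEK the centred r turned in sign against the pooled r, to 0.584 and 0.258. The cause of these turns was not tested.

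The number of changed genes over all tested genes was 23. It was 6 with no filter, 9 after median-of-ratios scaling, 10 after quantile normalization, 38 with array weights, 11 with the endothelial covariate, and 1 (without high altitude replicate 3) to 12 (without high altitude replicate 1) when 1 library was left out. The 4 genes whose groups do not overlap were the same under rescaling to a common total and median-of-ratios scaling, chosen after the data were seen, with 15 and 17.2% of all genes apart. With the replicate block 19 genes changed and KDR had an adjusted p of 0.206 in limma. Deviations of same-numbered libraries correlated at −0.0154, 0.0949 and −0.141, and those of different-numbered libraries at −0.151 to 0.161. No pairing by number was seen, though such values cannot exclude one. The ratio tests cannot fall below 0.1, which says nothing on their stability. The ratio of VEGFA to VEGFB was not run.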

Other observations

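Among 3201 genes with a symbol and a mean FPKM of 5 or more, the 3 with the highest Pearson correlation with VEGFA over the 6 libraries were MRPS6, a mitochondrial ribosomal protein (r = 0.993), SLC25A4, the ADP/ATP carrier of muscle (r = 0.980), and NDUFS6, a subunit of complex I (r = 0.979). MRPS6 was at an FPKM of 48.7, 16.2 and 22.9 at high and 15.1, 35.5 and 20.7 at low altitude. These are picked from many genes over 6 libraries and are given as a description. For PECAM1 the 3 genes were MAP4K4, a kinase (r = 0.995), EHD2, a protein of caveolae (r = 0.992), and ARL1, a small GTPase of the Golgi (r = 0.991).

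Of the 13 tested regulators, ESRRA, a nuclear receptor that drives mitochondrial genes, had the highest correlation with VEGFA. Its FPKM was 32.4, 19.3 and 26.4 at high and 14.1, 31.6 and 17.2 at low altitude, with high altitude library 1 and low altitude library 2 highest, as for VEGFA. Pearson's r was 0.94 (exact permutation p = 0.00833, adjusted over the 13 relations 0.108), Spearman's rho 0.94 (exact permutation p = 0.0167, adjusted 0.217), and r was 0.92 without those libraries. HIF1A, the oxygen-regulated factor, had an r of −0.16 (exact permutation p = 0.793; rho 0.09, exact permutation p = 0.919), and 0.98 without the same libraries. PPARGC1A, the coactivator that works with ESRRA, had an r of 0.0033 (exact permutation p = 0.997; rho 0.09, exact permutation p = 0.919). None of the 13 passed after adjustment.

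In the order of protein-coding genes on the Sscrofa11.1 assembly KIT lies next to KDR, and ROBO3 next to ROBO4, and these neighbours were looked up after the values were seen. KIT, a receptor kinase that did not pass the filter on low values, was at an FPKM of 0.486, 0.824 and 0.783 at high and 0.568, 0.984 and 0.575 at low altitude. Its groups overlapped where those of KDR did not. ROBO3 was at most at 0.0477. PAN3, beside FLT1, was at 2.82, 2.38 and 3.31 at high and 3.36, 3.07 and 3.47 at low altitude, also overlapping. TEX2, beside PECAM1, was at 11.8, 13.2 and 12.9 at high and 15.4, 14.8 and 13.3 at low altitude, without overlap (log2 fold change 0.18, Benjamini-Hochberg adjusted p = 0.704 in limma). Every other neighbour with a row overlapped.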
